A study of Rattus norvegicus with 4 samples.

Results

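Senescent rat mesenchymal stem cells given trichostatin A (TSA) together with phenamil were compared with senescent cells given vehicle. The comparison uses 2 of the 4 samples of the series, 1 library per condition, and 12228 of the 34034 listed genes had enough counts to enter it. The cells came from rat femurs and were cultured in osteogenic induction medium. RNA was collected on day 1, 24 h into treatment, and the labels place all 4 samples in 1 batch. The other libraries were young cells with vehicle and senescent cells with TSA alone, both in the same medium, and their levels are given beside the results without a comparison of their own. No library held phenamil alone, so what phenamil contributed cannot be told apart from an effect of TSA within this comparison. The labels name phenamil as the second compound and the series title its methanesulfonate salt, whereas the design text names benzyl ether, and the labels were followed. The doses, the way senescence was reached and the number of animals were not given in the sources used here.

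TSA inhibits histone deacetylases, the enzymes that remove acetyl groups from histones and other proteins, and so tends to raise acetylation at chromatin. Phenamil is a derivative of the diuretic amiloride that blocks epithelial sodium channels, and it has been described as an osteogenic small molecule that raises Trib3 and thereby bone morphogenetic protein (BMP) signalling. Mesenchymal stem cells of bone marrow can give rise to bone, cartilage and fat cells, and senescent cells have left the cell cycle and often secrete matrix-modifying and inflammatory factors.

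Libraries were made with a 3' tag kit, which reads transcript ends, so values on the CPM scale (the count relative to the scaled library size) were compared between libraries and not between genes. A member called the most abundant of its list is the one with the most counts assigned in the pair, which need not mean the most transcripts. Total counts were 11024227 in the senescent control and 10720172 with both compounds, and a count of 0 allows up to 0.272 and 0.286 CPM in them. The share of counts from mitochondrially encoded messengers was 5.66% in the senescent control and 6.85% with both compounds, the highest of the 4 libraries. The labelled cell type was checked against its markers: of 15 mesenchymal stromal markers compared, 6 were higher, 2 lower and 7 neither. Thy1 stood at 754 and 803 CPM, whereas Eng stood at 1.997 and 2.19 CPM and Vcam1 at 0.908 and 0.857 CPM. Haematopoietic and macrophage markers summed to 6.90 CPM in the senescent control and 11.4 CPM with both compounds. Of these 16 markers 12 were at 0 in the senescent control and 5 with both compounds, the pan-leukocyte gene Ptprc had 0 and 3 counts, and Cd14 gave most of the sum. Endothelial markers summed to 18.5 and 20.1 CPM, almost all from Egfl7, with Pecam1 at 0 in both. Markers of mature osteoblasts and osteocytes summed to 0.272 and 0 CPM. Chondrocyte markers summed to 1694 and 1629 CPM, and their part in the cartilage gene values was not tested. In such bulk samples fewer cells of a type and less RNA per cell cannot be told apart.

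The 2 libraries were close to each other. Each ratio below is the scaled count with both compounds over that in the senescent control, followed in parentheses by its 95% exact counting interval. A gene is called higher or lower where this interval excludes no change. The intervals cover counting error only, reads counted without molecular identifiers need not be independent molecules, and with 1 library per condition no test and no p-value could be given. By this rule 1930 genes were higher (15.8% of those compared) and 1939 lower (15.9%), together 31.6%, and the median log2 ratio of all genes was -0.0006. Calls follow depth: 20.4% of genes with under 100 counts over the 2 libraries were called, against 59.6% of the 1786 genes with at least 2000. Among those most abundant genes the log2 ratios had a standard deviation of 0.17. Counts of members in a gene group are to be read against these shares, which are higher for groups of abundant genes. Where the 4 libraries are ranked for a gene, the rank is by value alone, and counting error does not separate all ranks. For genes chosen by their ratio, the choice itself favours extreme ranks of the 2 libraries compared.

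Few genes differed by a large factor. The whole interval lay beyond 1.5-fold for 71 genes in the higher direction (0.581%) and 62 in the lower (0.507%), together 1.09%. Beyond 2-fold lay 10 higher (0.0818%) and 10 lower genes (0.0818%), together 0.164%. Of these 20 genes 18 had under 100 counts over the 2 libraries, and the exceptions were Krt7 and Aqp1.

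Krt7, a keratin of simple epithelia, stood at 4.42 CPM in the young control, 13.0 CPM in the senescent control, 18.9 CPM with TSA and 3.62 CPM with both compounds. Its ratio was 0.279 (0.190 to 0.401). Aqp1, which encodes a water channel, stood at 32.9, 80.6, 120.4 and 29.6 CPM in the same order, a ratio of 0.367 (0.322 to 0.418). In both genes the library with both compounds was the lowest of the 4 and close to the young control, and the TSA library was the highest. Below them in abundance were B3galt1, a glycosyltransferase gene at 0.189 (0.0816 to 0.388), and the WNT receptor gene Fzd3 at 0.257 (0.124 to 0.490). Slc16a11, of the monocarboxylate transporter family, had 22 counts in the senescent control and 1 with both compounds, a ratio of 0.0477 (0.00116 to 0.295). Fhad1, a forkhead-associated domain gene, had 32 and 6 counts and 0 in the young control. The small nucleolar RNA Snord118, which acts in ribosomal RNA processing, had 29 and 4 counts. A further small nucleolar RNA, LOC120098012, had 25 and 2 counts, and the long noncoding RNA LOC102553528 had 28 and 3. The unclassified LOC120102327 had 16 and 0 counts, a ratio of 0 (0 to 0.272). With 3 counts allowed for the 0 and the 16 taken as exact, it was 5.08-fold lower. As a class, small nucleolar RNAs had 3 of 53 genes called higher and 8 lower. Of all genes compared 15.8% were higher and 15.9% lower.

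In the higher direction Capn5, a calpain protease gene, stood at 4.598 CPM in the young control, 1.54 CPM in the senescent control, 2.72 CPM with TSA and 6.09 CPM with both compounds, a ratio of 3.95 (2.28 to 7.19). Rasa3, a GTPase-activating protein for Ras, stood at 5.14, 1.18, 3.73 and 4.76 CPM, a ratio of 4.03 (2.16 to 8.10). The senescent control was the lowest of the 4 libraries for both, a rank favoured by choosing them for a high ratio over it. It held 17 counts of Capn5 and 13 of Rasa3, against 27 and 37 in the TSA library. The other protein-coding genes were Prtg, an immunoglobulin superfamily gene, with 7 counts in the senescent control and 33 with both compounds, Pcp4l1 with 7 and 33, the kelch family gene Klhl29 with 6 and 35, and Cfap20dc with 8 and 37. Kcnj14, an inward rectifier potassium channel gene, had 1 and 15 counts, and its ratio of 15.7 (2.42 to 662) is accordingly wide. The long noncoding RNAs LOC108350721 and LOC103691419 and the unclassified LOC120097742 completed the set.

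Of the 9668 genes holding 100 or more counts in the pair of libraries, 19 were beyond 1.5-fold higher and 26 lower, most of which are named here or with their gene group. Several of the higher genes belong to the extracellular matrix. Adamts2, which encodes the peptidase that removes the amino-terminal propeptide of procollagen, stood at 16.7 CPM in the young control, 7.63 CPM in the senescent control, 8.87 CPM with TSA and 19.2 CPM with both compounds, a ratio of 2.52 (1.95 to 3.29). Dermatopontin (Dpt), a collagen-binding matrix protein, stood at 22.1, 12.1, 8.17 and 24.5 CPM, a ratio of 2.03 (1.64 to 2.52). Spondin-1 (Spon1) stood at 55.1, 33.0, 27.02 and 62.7 CPM, a ratio of 1.90 (1.67 to 2.16). Olfml2b, an olfactomedin domain gene, was at 1.82 (1.65 to 2.02) and the scavenger receptor gene Ssc5d at 1.86 (1.59 to 2.18). In Dpt, Spon1, Olfml2b and Ssc5d the library with both compounds was by value the highest of the 4 and the TSA library the lowest. For Ssc5d the TSA library was close to the senescent control, at 20.3 and 22.8 CPM. Other higher genes were Notch3, a Notch receptor gene of mural cells, at 1.94 (1.61 to 2.35), and Ramp1, a subunit of the calcitonin gene-related peptide receptor, at 2.697 (1.72 to 4.34). Dctpp1, which hydrolyses dCTP, was at 2.30 (1.72 to 3.10), the crystallin gene Cryba4 at 2.43 (1.69 to 3.55), and Wrap53, of telomerase trafficking, at 2.57 (1.67 to 4.04). Also in this set were ND4, LOC102549795, RGD1563581, Faxdc2, Bltp3a, Zfp61, Klhl23 and Dlgap1, with ratios from 1.66 to 2.95.

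Among the lower genes with at least 100 counts, Eno3, the muscle form of the glycolytic enzyme enolase, stood at 32.9 CPM in the young control, 82.3 CPM in the senescent control, 120.1 CPM with TSA and 41.5 CPM with both compounds, a ratio of 0.504 (0.449 to 0.566). Slc6a4, the serotonin transporter gene, stood at 6.94, 9.71, 17.1 and 4.38 CPM, a ratio of 0.451 (0.312 to 0.643). Mybl1, a MYB family transcription factor gene, was at 0.434 (0.349 to 0.538). The most abundant of the lower genes were Plekhh1, a pleckstrin homology domain gene, which stood at 875 CPM in the senescent control and 559 CPM with both compounds, and the F-box gene Fbxo34, which stood at 173 CPM in the senescent control and 92.6 CPM with both compounds. Gja1, which encodes the gap junction protein connexin 43, went from 136 to 82.8 CPM, a ratio of 0.608 (0.559 to 0.662). Ccbe1, a matrix protein of lymphatic growth factor processing, was at 0.568 (0.493 to 0.654), and Sgca, a sarcoglycan gene, at 0.358 (0.223 to 0.561). The ribosomal RNA precursor Rn45s was at 0.357 (0.230 to 0.542) and the transfer RNA Trnn at 0.428 (0.291 to 0.618), which are not polyadenylated messengers. Otulin, a deubiquitinase of linear chains, was at 0.499 (0.394 to 0.629) and Rapgef4, an exchange factor activated by cyclic AMP, at 0.513 (0.420 to 0.624). Also in this set were Ado, Tmem154, Cyp2u1, the sorting nexin gene Snx31, Aar2, Vps26c, Pot1 of the telomere end and Rprd1b, with ratios from 0.371 to 0.518. Slc16a3, Smoc2 and Itga7 are given with their groups below.

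**Figure D1:**
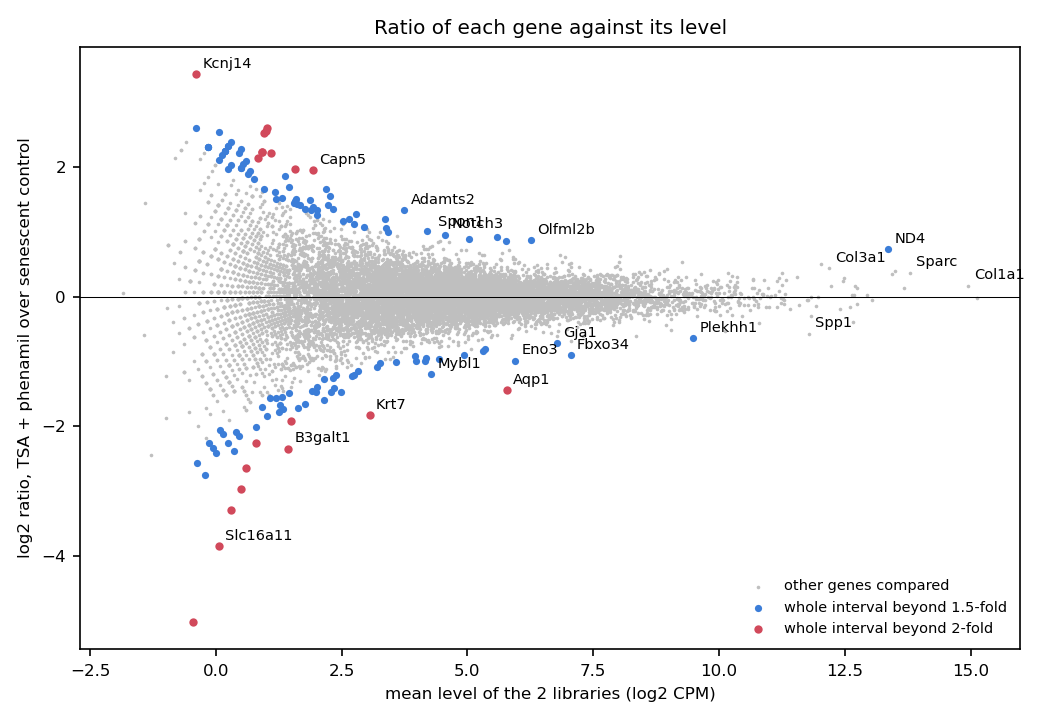
Log2 ratio of both compounds over the senescent control (vertical axis) against the mean level of the 2 libraries in log2 CPM (horizontal axis), 1 point per gene compared. Blue points have their whole counting interval beyond 1.5-fold and red points beyond 2-fold; apart from Krt7 and Aqp1 the red points have under 100 counts, and the spread narrows with level.

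**Figure D2:**
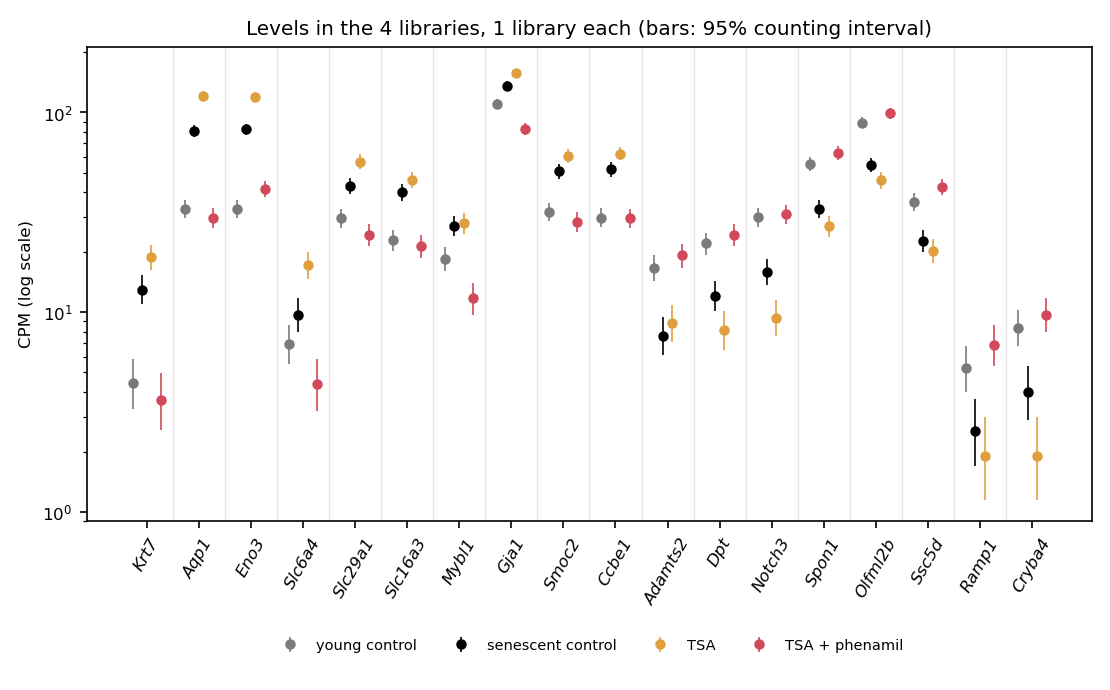
CPM on a log scale of 18 named genes in the 4 libraries, 1 point per library, with 95% counting intervals as bars; the genes were picked after their values were seen. In the 10 genes at left the library with both compounds lies below the senescent control, and in the 8 genes at right above it. In most of these picked genes it also lies near the young control, which does not hold for all named genes. By value it was below either control for Trnn, Rn45s, Snx31 and Cyp2u1, and above either for Dlgap1 and Zfp61. How common closeness to young cells is among all named genes was not tested.

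Abundant genes carried the largest shifts in CPM. The 10 largest gains made up 37.2% of the summed gain over all compared genes with a gain, called or not. The 10 largest losses made up 16.5% of the summed loss, taken likewise. ND4, a subunit of respiratory complex I encoded in the mitochondrion, gained 5210 CPM, from 7879 to 13089. Col1a1, the main chain of type I collagen, gained 3711 CPM at a ratio of 1.12 (1.12 to 1.13). Sparc, which encodes the collagen-binding protein osteonectin, gained 3629 CPM at 1.29 (1.28 to 1.30). Ccdc80, a secreted matrix-associated protein gene, gained 2673 CPM at 1.28 (1.27 to 1.29). Mitochondrial and matrix transcripts together made up this list, with ATP6, ND2, COX2, ND3, Col3a1 and Col1a2 as the others. The largest loss was that of S100a6, a calcium-binding protein gene, which went from 7399.8 to 5629 CPM, a ratio of 0.761 (0.753 to 0.769). Spp1, which encodes the bone matrix phosphoprotein osteopontin, went from 4194 to 2828 CPM, a ratio of 0.674 (0.664 to 0.684). Thbs1, an adhesive glycoprotein gene, was at 0.812 (0.800 to 0.823), fibronectin (Fn1) at 0.876 (0.866 to 0.886), and cyclin D1 (Ccnd1), which drives entry into the cell cycle, at 0.689 (0.671 to 0.707). Actb, Lox and the mitochondrial ribosomal RNAs mt-Rnr1 and mt-Rnr2 were among the other losses.

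Genes were then read in 57 lists by function, which were chosen with earlier results of these data known. Their medians ran from -0.26 to 0.41 on the log2 scale, from epithelial-type to skeletal muscle genes, both lists with few or scarce members. These 2 medians depend on the count filter. With 200 or more counts over the 4 libraries that of 6 epithelial-type genes was -0.61 and that of 2 skeletal muscle genes -0.53, opposite in sign to the value over 8. In 10 lists the median and the mean differed in sign, and both values are given for these. The plot of all lists sets each beside the shares of all genes.

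**Figure D3:**
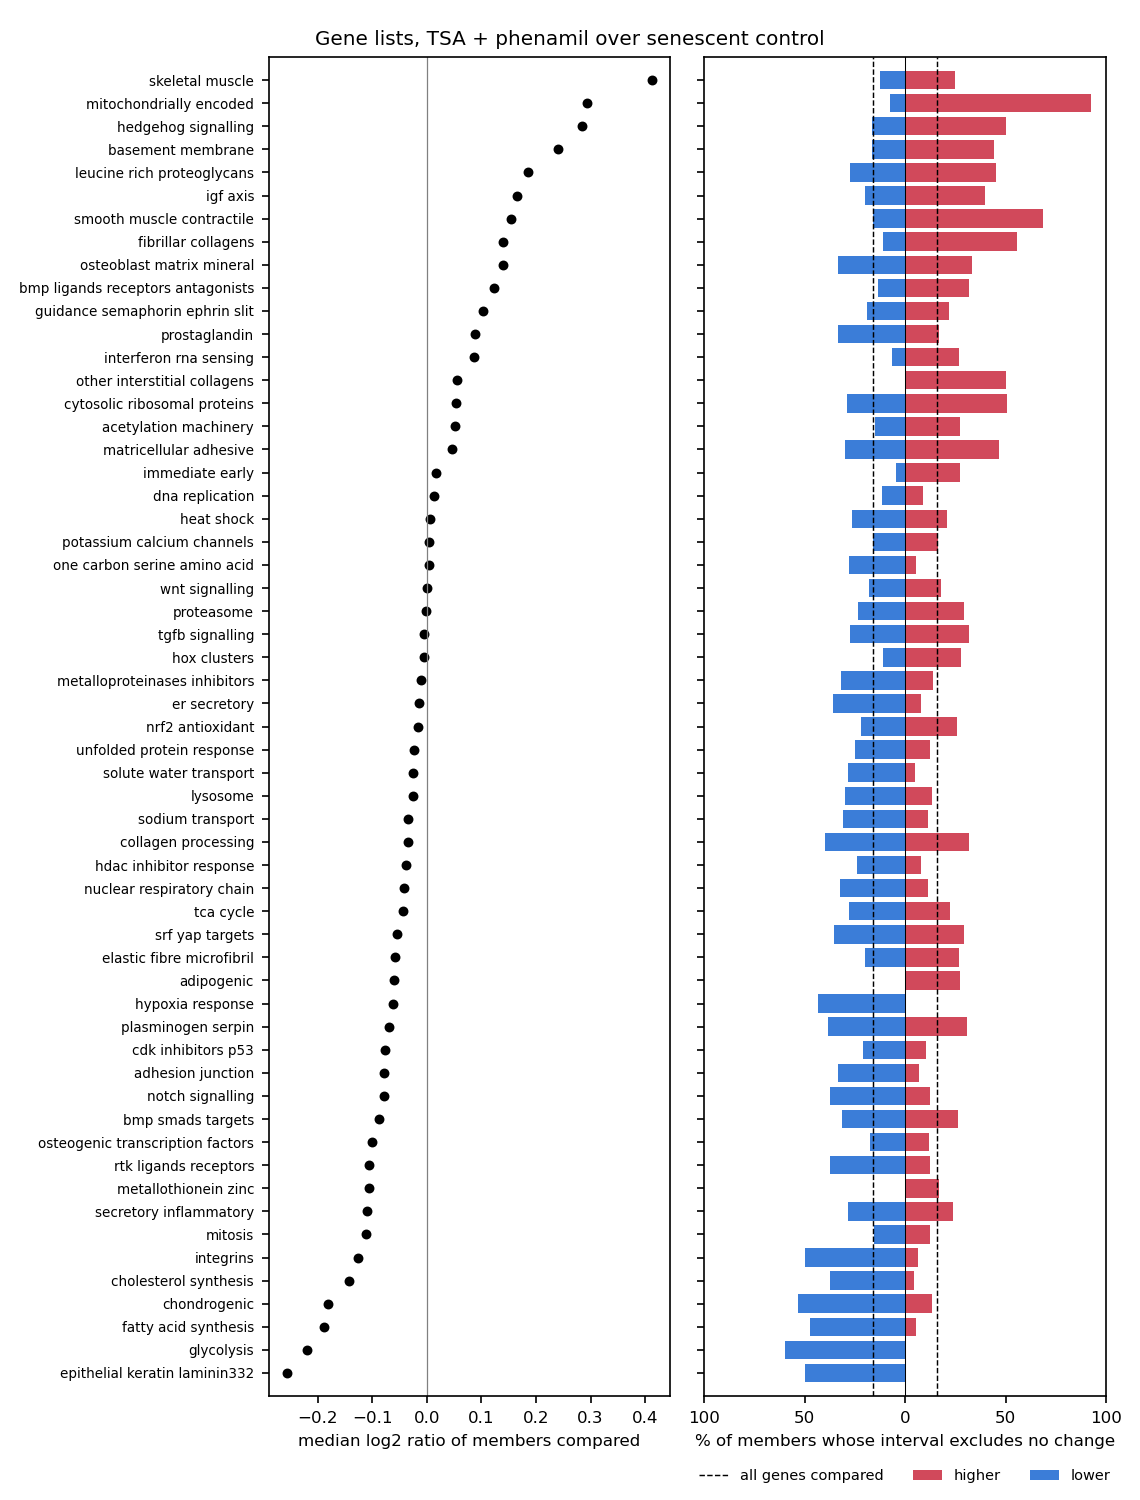
Left, the median log2 ratio of both compounds over the senescent control for the members compared in each of 57 gene lists; right, the percentage of members higher (red) or lower (blue), with dashed lines at the shares of all genes, 15.8% and 15.9%. In the right panel mitochondrially encoded, smooth muscle contractile and fibrillar collagen genes extend farthest to the higher side, and glycolysis, chondrogenic, integrin and epithelial genes to the lower side.

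Collagen genes were mostly at or above the level of the senescent control. Of 9 fibrillar collagens compared 5 were higher, 1 lower and 3 neither, at a median log2 ratio of 0.14, against -0.0006 for all genes. Col3a1, the chain of type III collagen, stood at 4922 CPM in young cells, 3942 in senescent cells, 3333 with TSA and 5326 with both compounds, a ratio of 1.35 (1.33 to 1.37). Col5a3, a type V chain, stood at 347, 205, 144 and 316 CPM, a ratio of 1.54 (1.46 to 1.63). Col27a1, a cartilage collagen, was at 1.26 (1.14 to 1.38). For these 3 genes the TSA library was the lowest of the 4. Col11a1, the cartilage-type fibril chain, was the lower member at 0.895 (0.879 to 0.911). Other interstitial collagens had 5 of 10 higher and 0 lower (median 0.05). The beaded-filament chains Col6a1 and Col6a3 stood at 1.28 (1.25 to 1.31) and 1.34 (1.29 to 1.39), and the fibril-associated Col12a1 at 1.32 (1.18 to 1.47). Col8a1, the most abundant of this group, was at 1.01 (0.995 to 1.03). No collagen lay beyond 1.5-fold by its whole interval.

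Basement membrane genes had 8 of 18 higher, 3 lower and 7 neither (median 0.24). The type IV collagen chain Col4a2 stood at 88.9 CPM in the senescent control and 139 CPM with both compounds, a ratio of 1.57 (1.44 to 1.70). Laminin beta-2 (Lamb2) was at 1.25 (1.18 to 1.33), Col15a1 at 1.42 (1.14 to 1.79), and the scarce laminin Lama5 at 2.40 (1.24 to 4.86). On the other side was Lamb3, a chain of the epithelial laminin-332, which stood at 10.4 CPM in the senescent control and 5.90 CPM with both compounds, a ratio of 0.570 (0.412 to 0.784). Nidogen-2 (Nid2) was at 0.875 (0.785 to 0.974) and perlecan (Hspg2), the most abundant member, at 0.945 (0.898 to 0.994). The group thus held members on both sides, with the epithelial laminin chain the farthest below.

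Genes that process and crosslink collagen were divided, with 8 of 25 higher, 10 lower and 7 neither. The median log2 ratio was -0.04 and their mean 0.02, of opposite sign. Lox, the lysyl oxidase that starts crosslinking, stood at 2033 CPM in the senescent control and 1530.3 CPM with both compounds, a ratio of 0.753 (0.737 to 0.768), and its relative Loxl3 at 0.733 (0.664 to 0.810). P4ha1, a prolyl hydroxylase subunit, was at 0.813 (0.795 to 0.832) and Crtap, of the prolyl 3-hydroxylase complex, at 0.797 (0.751 to 0.845). Higher were the procollagen peptidase Adamts2, described above, and Pcolce, an enhancer of carboxy-terminal propeptide removal, at 1.20 (1.16 to 1.24). So were the collagen chaperone gene Serpinh1 at 1.10 (1.08 to 1.12) and Loxl2 at 1.09 (1.06 to 1.12). Of the named lysyl oxidase genes Lox and Loxl3 were thus lower and Loxl2 higher.

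Elastic fibre and microfibril genes had 4 of 15 higher and 3 lower (median -0.06). Fibrillin-1 (Fbn1) stood at 577 CPM in the senescent control and 714 CPM with both compounds, a ratio of 1.24 (1.20 to 1.28). Fbln5, which organises elastin, was at 1.28 (1.17 to 1.40), whereas Ltbp1, which binds latent TGF-beta, was at 0.749 (0.645 to 0.870). Small leucine-rich proteoglycans had 5 of 11 higher and 3 lower (median 0.18). Biglycan (Bgn), the most abundant, stood at 1483 CPM in the senescent control and 1768 CPM with both compounds, a ratio of 1.19 (1.17 to 1.22). Osteomodulin (Omd) was at 1.23 (1.10 to 1.39) and asporin (Aspn) at 1.21 (1.12 to 1.32), while Ogn was at 0.874 (0.846 to 0.904), fibromodulin (Fmod) at 0.872 (0.793 to 0.959) and Prelp at 0.796 (0.697 to 0.909). Within this family of collagen binders the directions were thus mixed.

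Matricellular and adhesive proteins, which modulate cell contact with the matrix, had 14 of 30 higher, 9 lower and 7 neither (median 0.05). Beside Dpt, Spon1, Olfml2b and Sparc, the cartilage intermediate layer protein gene Cilp stood at 6.45 CPM in the senescent control and 12.9 CPM with both compounds, a ratio of 1.99 (1.49 to 2.697). Smoc2, a calcium-binding matricellular gene, went the other way, from 50.7 to 28.4 CPM, a ratio of 0.560 (0.485 to 0.646). Comp, a cartilage matrix gene with 3.09 and 1.24 CPM, was at 0.401 (0.194 to 0.780). Beyond 1.5-fold lay 3 higher and 1 lower member, against 1.09% of all genes. Metalloproteinases and their inhibitors had 3 of 22 higher and 7 lower (median -0.01). Timp1, a metalloproteinase inhibitor gene, was at 0.825 (0.803 to 0.847), the membrane-bound collagenase gene Mmp14 at 0.869 (0.821 to 0.920) and Timp2, the most abundant, at 0.993 (0.975 to 1.01). Adamts1, a scarce member, was at 0.459 (0.283 to 0.726). Plasminogen activators and serpins had 4 of 13 higher and 5 lower (median -0.07, mean 0.004). Plat, the tissue plasminogen activator gene, was at 1.31 (1.12 to 1.52) and protease nexin-1 (Serpine2) at 0.785 (0.7505 to 0.821).

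**Figure D4:**
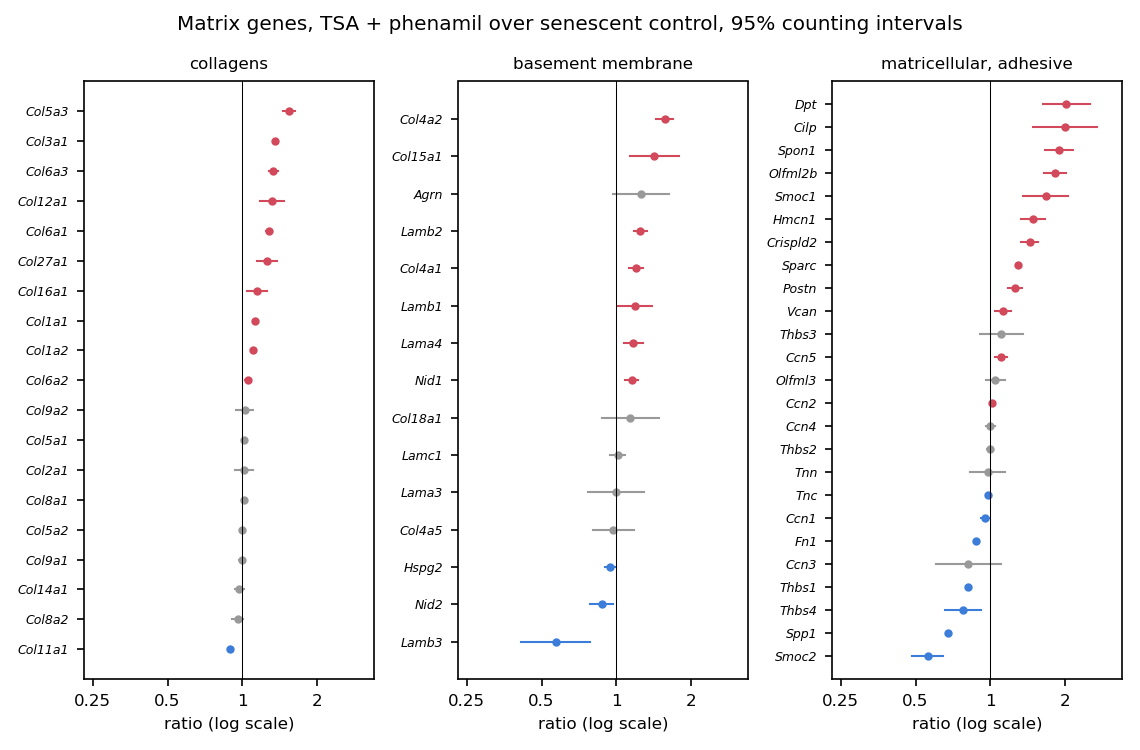
Ratio of both compounds over the senescent control on a log scale, with 95% counting intervals, for collagens, basement membrane genes and matricellular genes holding 100 or more counts in the pair. Red genes are higher, blue lower and grey neither; collagens lie from 0.895 for Col11a1 to 1.54 for Col5a3, and matricellular genes spread from 0.560 for Smoc2 to 2.03 for Dpt.

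Integrin genes, whose products bind matrix at the cell surface, leaned to the lower side, with 1 of 16 higher, 8 lower and 7 neither (median -0.13). Itga7, a laminin-binding subunit, stood at 12.9 CPM in the senescent control and 6.29 CPM with both compounds, a ratio of 0.488 (0.358 to 0.657). Itgb5, which pairs with the alpha-V subunit, went from 563 to 417 CPM, a ratio of 0.740 (0.712 to 0.770). The scarce collagen-binding subunits Itga2 and Itga10 were at 0.338 (0.148 to 0.708) and 0.282 (0.103 to 0.668). Itgav, the alpha-V subunit, was the higher member at 1.20 (1.10 to 1.32), and Itgb1, the most abundant, was at 0.985 (0.964 to 1.01). Adhesion and junction genes had 1 of 15 higher and 5 lower (median -0.08). Beside Gja1, described above, the leukocyte adhesion gene Icam1 was at 0.718 (0.652 to 0.791), the hyaluronan receptor gene Cd44 at 0.902 (0.843 to 0.965), and a cadherin gene, Cdh13, at 1.16 (1.06 to 1.26).

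Smooth muscle contractile genes were the group of nuclear genes with the largest share of higher members, 13 of 19, with 3 lower and 3 neither (median 0.15). Actg2, the enteric smooth muscle actin gene, stood at 23.9 CPM in young cells, 15.3 in senescent cells, 12.5 with TSA and 27.2 with both compounds, a ratio of 1.79 (1.47 to 2.17). Myh11, the smooth muscle myosin heavy chain gene, stood at 52.7, 30.5, 20.9 and 47.6 CPM, a ratio of 1.56 (1.36 to 1.80). Mylk, the myosin light chain kinase gene, was at 1.65 (1.27 to 2.16). Acta2, the smooth muscle actin gene and the most abundant member, went from 4508 to 5062 CPM, a ratio of 1.12 (1.11 to 1.14). In these 4 genes the TSA library was the lowest of the 4. The abundant Tagln was lower at 0.910 (0.896 to 0.924), and Cald1 and Actn1 were at 0.967 (0.953 to 0.981) and 0.976 (0.956 to 0.997), both close to no change. Targets of SRF and YAP, transcription regulators that respond to tension, had 5 of 17 higher and 6 lower (median -0.06). Fhl2 was at 1.21 (1.13 to 1.28) and Axl at 0.869 (0.827 to 0.914). Of 18 skeletal muscle genes 8 were compared, with 2 higher and 1 lower. The troponin gene Tnnc2, at 0.635 and 2.48 CPM, and the creatine kinase gene Ckm, at 0.182 and 1.05 CPM, were the higher ones, and Eno3 the lower.

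Epithelial-type genes showed 0 of 10 higher and 5 lower (median -0.26), the lowest median of all lists. This list too was chosen with earlier results of these data known, so its rank is a description and no test. Krt7 and Lamb3 have been given. Areg, which encodes the EGF receptor ligand amphiregulin, stood at 3.52, 5.81, 8.27 and 2.19 CPM from young control to both compounds, a ratio of 0.377 (0.223 to 0.616). Krt8, a partner keratin, was at 0.747 (0.586 to 0.948) and the membrane protein gene Emp1, the most abundant, at 0.937 (0.887 to 0.990). For all 5 the TSA library was the highest of the 4 libraries. The defining epithelial markers were scarce, summing to 15.98 CPM in the senescent control and 12.1 CPM with both compounds, most of it Krt8.

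Glycolysis genes leaned to the lower side, with 0 of 20 higher, 12 lower and 8 neither (median -0.22). Genes of the hypoxia response, many of them targets of the transcription factor HIF-1, had 0 of 23 higher and 10 lower (median -0.06). Over both lists 22 of 42 genes were lower and 0 higher (median -0.16). Promoter sequences are shown for the members whose ratios had the lowest upper bounds, among those with a promoter in the table used. They are shown because genes of these lists stood together on the lower side and HIF-1 is known to act through a short core motif. The RefSeq promoter table of the build GRCr8 was used, which differs from the build of the counts, mRatBN7.2. Each window holds 300 bases, 250 before and 50 after the annotated start, and capitals mark each ACGTG or GCGTG on either strand. The windows are Eno3 at chr10:55868936-55869235, plus strand, Slc16a3 at chr10:106712078-106712377, plus strand, Ankrd37 at chr16:53001257-53001556, plus strand, Pdk1 at chr3:77113264-77113563, plus strand, and Pfkl at chr20:10663715-10664014, plus strand.
Eno3: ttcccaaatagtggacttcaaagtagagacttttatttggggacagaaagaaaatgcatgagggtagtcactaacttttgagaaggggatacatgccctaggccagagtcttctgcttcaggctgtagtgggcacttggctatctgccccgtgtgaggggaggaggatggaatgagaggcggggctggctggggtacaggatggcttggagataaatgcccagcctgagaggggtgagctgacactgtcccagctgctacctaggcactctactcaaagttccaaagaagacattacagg
Slc16a3: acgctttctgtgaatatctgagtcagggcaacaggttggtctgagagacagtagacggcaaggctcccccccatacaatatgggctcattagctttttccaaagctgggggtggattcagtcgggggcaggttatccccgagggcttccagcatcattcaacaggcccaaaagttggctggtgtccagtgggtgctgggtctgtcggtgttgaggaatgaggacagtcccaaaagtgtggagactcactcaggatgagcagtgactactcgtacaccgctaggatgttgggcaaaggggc
Ankrd37: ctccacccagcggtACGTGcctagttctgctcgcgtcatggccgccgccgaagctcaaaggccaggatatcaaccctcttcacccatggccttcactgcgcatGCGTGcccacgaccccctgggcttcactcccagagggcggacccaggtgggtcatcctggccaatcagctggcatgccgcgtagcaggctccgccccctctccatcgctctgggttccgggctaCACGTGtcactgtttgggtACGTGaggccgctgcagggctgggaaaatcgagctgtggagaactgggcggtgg
Pdk1: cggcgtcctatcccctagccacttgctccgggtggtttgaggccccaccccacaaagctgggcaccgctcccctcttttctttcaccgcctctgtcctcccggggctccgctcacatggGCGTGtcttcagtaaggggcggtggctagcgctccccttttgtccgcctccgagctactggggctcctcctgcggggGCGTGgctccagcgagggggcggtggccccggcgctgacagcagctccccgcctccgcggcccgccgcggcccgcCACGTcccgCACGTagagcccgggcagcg
Pfkl: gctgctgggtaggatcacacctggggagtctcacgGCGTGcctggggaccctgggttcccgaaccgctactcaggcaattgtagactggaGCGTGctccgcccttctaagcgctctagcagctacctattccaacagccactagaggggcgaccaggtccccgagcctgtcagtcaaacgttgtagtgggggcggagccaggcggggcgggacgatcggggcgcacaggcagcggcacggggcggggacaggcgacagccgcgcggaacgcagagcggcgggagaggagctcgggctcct

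Counted on both strands, the core was found 5 times in the window of Ankrd37, 4 times in that of Pdk1 and 2 times in that of Pfkl. It was found 0 times in those of Eno3 and Slc16a3. The CACGTG of Ankrd37 is a match on each strand, so its 5 matches fill fewer capitalised stretches. It was present in 14 of 18 glycolysis genes and 13 of 19 hypoxia genes with a promoter in the table. The same core was present in 63.8% of the 9856 compared genes with a promoter and in 41.6% of all promoters in the table. A match is a description of letters in a window and not a bound site.

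Slc16a3, which encodes the lactate exporter MCT4, stood at 22.9 CPM in young cells, 39.9 in senescent cells, 45.8 with TSA and 21.3 with both compounds, a ratio of 0.535 (0.454 to 0.630). Pfkl, a phosphofructokinase gene of the committing step, stood at 21.8 CPM in the senescent control and 13.8 CPM with both compounds, a ratio of 0.634 (0.512 to 0.782). Enolase 1 (Eno1) was at 0.783 (0.742 to 0.825), and enolase 2 (Eno2), the glycolysis gene with the most counts assigned, at 0.892 (0.855 to 0.931). All 3 enolase genes were thus lower, Eno3 by the largest factor. Among hypoxia genes the scarce Ankrd37 stood at 7.08 CPM in the senescent control and 3.33 CPM with both compounds, a ratio of 0.471 (0.306 to 0.710). Pdk1, a kinase that holds pyruvate out of the citric acid cycle, stood at 17.3 CPM in the senescent control and 9.999 CPM with both compounds, a ratio of 0.577 (0.450 to 0.735). The abundant P4ha1 and Lox, which are also collagen-modifying genes and were given there, made up the rest of the named members. By the whole interval Eno3 and Slc16a3 of the glycolysis list and 0 of the hypoxia list were beyond 1.5-fold.

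Cholesterol synthesis genes had 1 of 24 higher, 9 lower and 14 neither (median -0.14). Fatty acid synthesis genes had 1 of 19 higher, 9 lower and 9 neither (median -0.19), and over both lists 18 of 43 were lower and 2 higher. Lss, which encodes lanosterol synthase, stood at 27.4 CPM in the senescent control and 17.0 CPM with both compounds, a ratio of 0.622 (0.514 to 0.7504). Promoter windows of the 2 genes of both lists whose ratios had the lowest upper bounds are shown, Lss at chr20:12118181-12118480 on the minus strand of GRCr8 and Acat2 at chr1:50100590-50100889 on its plus strand. Capitals mark the CCAAT box, written ATTGG on the other strand, which was found in the window of Lss and 0 times in that of Acat2.
Lss: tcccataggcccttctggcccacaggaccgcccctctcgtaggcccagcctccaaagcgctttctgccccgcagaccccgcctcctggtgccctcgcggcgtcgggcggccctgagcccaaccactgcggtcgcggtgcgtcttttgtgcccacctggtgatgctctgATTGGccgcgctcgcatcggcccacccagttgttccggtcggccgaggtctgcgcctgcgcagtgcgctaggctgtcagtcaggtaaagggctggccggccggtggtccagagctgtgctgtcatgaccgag
Acat2: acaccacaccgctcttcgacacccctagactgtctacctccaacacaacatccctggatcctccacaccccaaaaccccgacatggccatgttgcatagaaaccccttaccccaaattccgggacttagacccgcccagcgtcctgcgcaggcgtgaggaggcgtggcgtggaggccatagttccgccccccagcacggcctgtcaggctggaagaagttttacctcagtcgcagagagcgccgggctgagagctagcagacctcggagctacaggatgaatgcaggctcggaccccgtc

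The CCAAT box was found on either strand in 14 of 17 cholesterol genes and 8 of 14 fatty acid genes with a promoter, against 39.5% of compared genes and 37.5% of all promoters. The sterol regulatory element searched as TCACNCCAC was in 0 of 17 and 0 of 14, against 1.21% of compared genes. In all 5 motifs were searched. The other ones were the CArG box, in 0 of 14 smooth muscle contractile genes against 1.45% of compared genes, and the TATA box (TATAAA). The latter was in 1 of 6 fibrillar collagens, against 7.33% of compared genes. Acat2, which makes acetoacetyl-CoA for the pathway, stood at 84.7 CPM in the senescent control and 58.6 CPM with both compounds, a ratio of 0.691 (0.623 to 0.766). Insig1, which retains the sterol sensor in the endoplasmic reticulum, was at 0.767 (0.686 to 0.857) and Cyp51 at 0.859 (0.814 to 0.907). The exception was squalene epoxidase (Sqle), which stood at 44.9 CPM in the senescent control and 55.5 CPM with both compounds, a ratio of 1.24 (1.10 to 1.40). In the fatty acid list the desaturase gene Scd stood at 41.0 CPM in the senescent control and 27.9 CPM with both compounds, a ratio of 0.680 (0.585 to 0.789), and its relative Scd2 was at 0.751 (0.703 to 0.803). Acly, which supplies cytosolic acetyl-CoA, was at 0.780 (0.714 to 0.851) and the elongase gene Elovl1 at 0.746 (0.678 to 0.822). Another elongase gene, Elovl5, was higher at 1.14 (1.05 to 1.24). Most of these differences were below 1.5-fold, and 0 genes of either list had a whole interval beyond it.

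**Figure D5:**
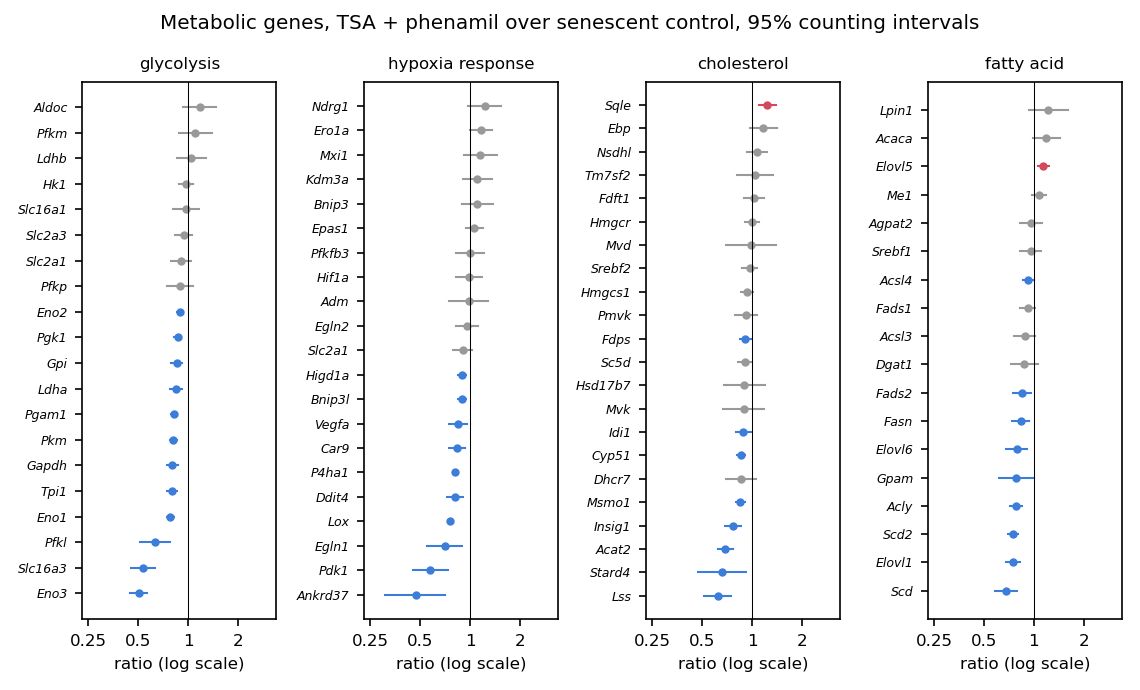
Ratio of both compounds over the senescent control on a log scale, with 95% counting intervals, for glycolysis, hypoxia, cholesterol and fatty acid genes reported here and holding 100 or more counts in the pair; blue genes are lower, red higher and grey neither. No glycolysis or hypoxia gene is red, and Sqle and Elovl5 are the red genes of the lipid lists.

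Mitochondrially encoded messengers stood apart from the nuclear genes of the same complexes. Of 13 mitochondrially encoded genes 12 were higher and 1 lower (median 0.29). ND4 stood at 9424 CPM in young cells, 7879 in senescent cells, 10165 with TSA and 13089 with both compounds, a ratio of 1.66 (1.65 to 1.68). ND2, also of complex I, stood at 3171, 3447, 3422 and 4892 CPM, a ratio of 1.42 (1.40 to 1.44). ATP6, a subunit of ATP synthase, stood at 9534, 9989, 9878 and 13163 CPM, a ratio of 1.32 (1.31 to 1.33). In these 3 genes the library with both compounds was the highest of the 4. COX1, of complex IV, was the lower member at 0.968 (0.959 to 0.977). ND4L was at 1.45 (1.40 to 1.496), and because it overlaps ND4, as ATP8 overlaps ATP6, their reads may be shared between neighbours. All are very abundant genes, so that even small ratios fall outside the counting interval. Nuclear genes of the respiratory chain had 5 of 43 higher and 14 lower (median -0.04). Cox7a2, of complex IV, was at 0.731 (0.659 to 0.810) and Ndufa9, of complex I, at 0.753 (0.668 to 0.847), whereas Ndufa5 was at 1.26 (1.19 to 1.33). Cox6c, the most abundant, was at 1.01 (0.984 to 1.04). Citric acid cycle genes had 4 of 18 higher and 5 lower (median -0.04). The isocitrate dehydrogenase subunit gene Idh3b was at 1.34 (1.14 to 1.58).

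Cytosolic ribosomal protein genes, also abundant, had 35 of 69 higher, 20 lower and 14 neither (median 0.05). Rpl32 was at 1.42 (1.32 to 1.54), Rpl17 at 1.32 (1.27 to 1.38) and Rpl4 at 1.27 (1.23 to 1.31), and on the other side Rpl36 was at 0.789 (0.741 to 0.839) and Rplp1 at 0.857 (0.834 to 0.881). The ribosome's genes thus did not share 1 direction, and reads of their processed copies may be divided among near-identical genes. Genes of the endoplasmic reticulum secretory route had 2 of 25 higher and 9 lower (median -0.01). The translocon subunit genes Sec61b and Sec61g were at 0.871 (0.842 to 0.902) and 0.856 (0.816 to 0.898), while Sec61a1 was at 1.09 (1.04 to 1.14). Unfolded protein response genes had 3 of 24 higher and 6 lower (median -0.02). Calreticulin (Calr) was at 0.865 (0.841 to 0.889) and the chaperone gene Hspa5, the most abundant, at 1.02 (1.004 to 1.04). Atf4, the transcription factor of the integrated stress response, stood at 532 CPM in the senescent control and 619 CPM with both compounds, a ratio of 1.16 (1.12 to 1.21).

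Heat shock genes had 4 of 19 higher and 5 lower (median 0.005, mean -0.04). Hspb1, a small heat shock protein gene, was at 0.828 (0.799 to 0.859) and the constitutive chaperone gene Hspa8 at 1.17 (1.05 to 1.29). Proteasome genes had 10 of 34 higher and 8 lower (median -0.002, mean 0.004), and lysosome genes 4 of 30 higher and 9 lower (median -0.03). Atp6v1a, a subunit of the lysosomal proton pump, was at 0.757 (0.707 to 0.810), and the sialidase gene Neu1 at 1.59 (1.29 to 1.95). NRF2 and antioxidant genes had 7 of 27 higher and 6 lower (median -0.02). Transketolase (Tkt) was at 1.33 (1.25 to 1.42) and the iron storage gene Ftl1 at 1.19 (1.14 to 1.24), whereas glutathione peroxidase 1 (Gpx1) was at 0.834 (0.804 to 0.865). Serine and 1-carbon metabolism genes had 1 of 18 higher and 5 lower, with Mthfd1l at 0.815 (0.720 to 0.921), and their median and mean differed in sign, at 0.004 and -0.03. Of 6 metallothionein and zinc genes 1 was higher, Mt1, which stood at 18.6, 15.6, 30.9 and 22.1 CPM from young control to both compounds, a ratio of 1.41 (1.16 to 1.73). The TSA library was the highest of the 4 for Mt1.

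Genes of bone formation, which the osteogenic medium is meant to induce, were divided. Among osteoblast matrix and mineral genes, 5 of 15 were higher, 5 lower and 5 neither (median 0.14). The sign of this median did not hold under other count filters, at -0.05 over 19 genes with no filter beyond 1 count in the pair and -0.006 over 13 genes with 200 or more counts. The higher members were matrix proteins: Sparc, Col1a1 and Col1a2, already given, and periostin (Postn), which stood at 142 CPM in the senescent control and 178 CPM with both compounds, a ratio of 1.26 (1.18 to 1.35). Spp1 stood at 2333 CPM in young cells, 4194 in senescent cells, 4316 with TSA and 2828 with both compounds, a ratio of 0.674 (0.664 to 0.684). Enpp1, which makes the mineralization inhibitor pyrophosphate, stood at 467, 617, 521 and 431 CPM, a ratio of 0.698 (0.673 to 0.725). The phosphate transporter gene Slc20a1 was at 0.854 (0.790 to 0.923). Alpl, the alkaline phosphatase of early osteoblasts, stood at 19.2 CPM in the senescent control and 21.6 CPM with both compounds, and its ratio of 1.12 (0.927 to 1.36) includes no change. Late markers were at the floor: Sp7 and Ibsp were at 0 in each of the 4 libraries and Bglap had 2 in each control and 0 in each treated library.

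Osteogenic transcription factors had 2 of 17 higher and 3 lower (median -0.10). Runx2, the main regulator of osteoblast fate, stood at 26.8 CPM in young cells, 19.6 in senescent cells, 17.2 with TSA and 23.6 with both compounds. Its ratio of 1.20 (0.999 to 1.45) reaches to no change. Sox4, a SOX family factor, was higher at 1.28 (1.22 to 1.34), as was Atf4. Nfatc1 was lower at 0.693 (0.576 to 0.834) and Lef1, a nuclear partner of beta-catenin, at 0.797 (0.679 to 0.935). Chondrogenic genes leaned to the lower side, with 2 of 15 higher, 8 lower and 5 neither (median -0.18). Aggrecan (Acan), the main cartilage proteoglycan, was lower, at 379.5 CPM in the senescent control and 319.7 CPM with both compounds. Hapln1, which links aggrecan to hyaluronan, was at 0.741 (0.652 to 0.841), Cilp2 at 0.577 (0.407 to 0.810), and Sox9, the cartilage master regulator, at 0.817 (0.724 to 0.922). The parathyroid hormone receptor gene Pth1r was higher at 1.28 (1.08 to 1.51). Adipogenic genes had 3 of 11 higher and 0 lower, among them Ebf1 at 1.27 (1.18 to 1.37) (median -0.06, mean 0.06, and a median of 0.08 without the count filter). Pparg, the adipocyte master regulator, was at 0.898 (0.661 to 1.22).

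BMP ligands, receptors and antagonists had 7 of 22 higher, 3 lower and 12 neither (median 0.12). Bmp2 stood at 37.5 CPM in young cells, 25.9 in senescent cells, 22.99 with TSA and 37.1 with both compounds, a ratio of 1.44 (1.23 to 1.68). Bmp4 stood at 207, 277, 306 and 352 CPM, a ratio of 1.27 (1.21 to 1.33). Bmp4 was thus highest with both compounds, whereas Bmp2 was close to the level of the young control. Noggin (Nog), an extracellular BMP antagonist, was higher too, at 1.56 (1.21 to 2.02), and the antagonists follistatin (Fst) and chordin (Chrd) were at 0.845 (0.780 to 0.916) and 0.516 (0.324 to 0.806).

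Trib3 and Smurf1, through which phenamil has been described to act on BMP signals, went in opposite directions. Trib3, a pseudokinase that promotes degradation of the ubiquitin ligase Smurf1, stood at 192 CPM in young cells, 176 in senescent cells, 158 with TSA and 158 with both compounds, a ratio of 0.901 (0.844 to 0.963). Smurf1 messenger was at 1.22 (1.03 to 1.45) and that of its relative Smurf2 at 0.837 (0.756 to 0.926). Trib3 was thus at the same level in both libraries with TSA, below both controls. BMP Smads and targets had 5 of 19 higher, 6 lower and 8 neither (median -0.09). The immediate BMP targets Id1, Id2 and Id3 were at 0.832 (0.756 to 0.916), 0.700 (0.609 to 0.804) and 0.927 (0.873 to 0.984). The inhibitory Smad7 stood at 15.98 CPM in the senescent control and 11.1 CPM with both compounds, a ratio of 0.697 (0.547 to 0.886), whereas Smad6 was at 1.15 (1.01 to 1.31) and the shared Smad4 at 1.18 (1.04 to 1.33). TGF-beta signalling genes had 7 of 22 higher and 6 lower (median -0.005). Smad3 was at 1.33 (1.12 to 1.59), the ligand gene Tgfb3 at 1.08 (1.04 to 1.13) and Pmepa1, a feedback inhibitor, at 0.894 (0.877 to 0.912).

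WNT signalling genes had 5 of 28 higher and 5 lower (median 0.0001). The direct target and feedback inhibitor Axin2 stood at 8.35 CPM in the senescent control and 3.90 CPM with both compounds, a ratio of 0.467 (0.315 to 0.682). Rspo3, a secreted enhancer of WNT signals, stood at 7.48, 2.18, 4.03 and 6.95 CPM from young control to both compounds, a ratio of 3.19 (1.99 to 5.29). The receptor gene Fzd8 was at 1.41 (1.28 to 1.55) and the scarce ligand gene Wnt2 at 3.67 (1.43 to 11.1). The named secreted genes Rspo3 and Wnt2 were thus higher and the target Axin2 lower. Notch genes had 2 of 16 higher and 6 lower (median -0.08, and 0.05 without the count filter). The higher ones were Notch3, which stood at 29.8, 15.98, 9.38 and 31.0 CPM, and its ligand gene Jag1, which stood at 116, 95.2, 61.2 and 117 CPM, a ratio of 1.23 (1.13 to 1.34). Lower were the target Hes1 at 0.809 (0.7505 to 0.872) and the nuclear effector Rbpj at 0.829 (0.770 to 0.892). For both higher genes the TSA library was the lowest of the 4. Hedgehog genes had 3 of 6 higher and 1 lower (median 0.28), and the transducer Smo was at 1.31 (1.08 to 1.58).

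Receptor tyrosine kinases and their ligands had 4 of 32 higher, 12 lower and 16 neither (median -0.11, and 0.03 without the count filter). Egfr, the receptor of amphiregulin, stood at 21.3 CPM in the senescent control and 13.6 CPM with both compounds, a ratio of 0.638 (0.515 to 0.789), so that ligand and receptor were both lower. Fgfr3 was at 0.615 (0.441 to 0.852), the collagen receptor Ddr1 at 0.770 (0.672 to 0.883), and Gas6, the most abundant, at 0.927 (0.892 to 0.963). Higher were Pdgfrb, a receptor of mesenchymal and mural cells, at 1.21 (1.06 to 1.38) and its ligand gene Pdgfa at 1.15 (1.09 to 1.22). Genes of the insulin-like growth factor axis had 6 of 15 higher and 3 lower (median 0.17). The binding protein genes Igfbp3, Igfbp6 and Igfbp7 were at 2.07 (1.40 to 3.11), 1.42 (1.23 to 1.65) and 1.22 (1.16 to 1.28), and the receptor gene Igf1r at 0.8997 (0.858 to 0.943). Semaphorin, ephrin and slit genes had 7 of 32 higher and 6 lower (median 0.10), with Ephb4 at 1.67 (1.20 to 2.34) and Plxna1 at 0.668 (0.515 to 0.864). Prostaglandin genes had 2 of 12 higher and 4 lower, and the inducible cyclooxygenase gene Ptgs2 stood at 24.7, 31.7, 44.96 and 26.1 CPM, a ratio of 0.823 (0.700 to 0.967).

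Sodium transport genes, to which the known channel target of phenamil belongs, had 3 of 26 higher, 8 lower and 15 neither (median -0.03). The epithelial sodium channel itself was at or near the floor. Scnn1a had 9 counts in young cells, 2 in senescent cells, 7 with TSA and 3 with both compounds. Scnn1b had 0 in all 4 libraries and Scnn1g 0 in all but the TSA library, which had 4. The acid-sensing channel gene Asic1 had 0 and 1 counts. Slc12a2, a sodium-potassium-chloride cotransporter gene, stood at 112, 148, 157 and 105 CPM from young control to both compounds, a ratio of 0.710 (0.657 to 0.766). Pkd2, a cation channel gene, was at 0.654 (0.602 to 0.711) and its partner Pkd1 at 1.25 (1.10 to 1.43). Fxyd5, a regulator of the sodium pump, was at 0.762 (0.694 to 0.835).

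Solute and water transporters had 1 of 21 higher and 6 lower (median -0.03, and 0.03 without the count filter), and 3 lower members lay beyond 1.5-fold. These were Aqp1, Slc6a4 and Slc16a3, given above. Slc29a1, a nucleoside transporter gene, stood at 29.7, 42.7, 56.8 and 24.4 CPM, a ratio of 0.571 (0.489 to 0.667). In all 4 genes the TSA library was by value the highest of the 4 and the library with both compounds the lowest. For Slc16a3 the lowest rank rests on 224 counts with both compounds against 254 in the young control. The higher member was the glucose transporter gene Slc2a12 at 1.40 (1.12 to 1.74), and the taurine transporter gene Slc6a6, the most abundant, was at 1.005 (0.975 to 1.04). Potassium and calcium channels had 5 of 31 higher and 5 lower, shares near those of all genes (median 0.005, mean -0.02). Kcnmb1, a smooth muscle channel subunit, was at 2.39 (1.34 to 4.42) and Kcnq5 at 0.635 (0.543 to 0.742).

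Genes linked to histone acetylation, the target process of TSA, are given beside the 31.6% of all genes called. The acetylation machinery had 9 of 33 higher, 5 lower and 19 neither (median 0.05). The deacetylase gene Hdac7 was at 1.30 (1.18 to 1.42), the corepressor gene Sin3a at 1.40 (1.22 to 1.61) and the acetyltransferase gene Crebbp at 1.18 (1.09 to 1.26). Hdac1 was at 0.938 (0.860 to 1.02). Genes commonly described as responding to deacetylase inhibitors had 2 of 25 higher, 6 lower and 17 neither (median -0.04). The linker histone gene H1f0, often used as such a marker, stood at 118, 126, 138 and 129 CPM, a ratio of 1.03 (0.954 to 1.11). Cdkn1a, a cycle inhibitor gene often induced by these compounds, stood at 237, 235, 225 and 203 CPM, a ratio of 0.865 (0.816 to 0.916). Txnip was at 0.782 (0.736 to 0.832) and Mt1 higher, as given. HOX cluster genes had 5 of 18 higher and 2 lower, with Hoxc9 at 1.40 (1.19 to 1.65) and Hoxc6, the most abundant, at 0.831 (0.774 to 0.891), a median of -0.005 and a mean of 0.04.

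Genes of senescence and the cell cycle were read against the same share of all genes, 31.6% called. Cycle inhibitors and p53 targets had 2 of 19 higher and 4 lower (median -0.08, mean 0.01). Cdkn2a, a cycle inhibitor gene widely used as a senescence marker, stood at 6.13, 5.08, 7.66 and 7.05 CPM, and its ratio of 1.39 (0.966 to 1.998) includes no change. The neighbouring inhibitor gene Cdkn2b was at 0.815 (0.753 to 0.883). Mitosis genes had 4 of 32 higher and 5 lower (median -0.11), and replication genes 3 of 34 higher and 4 lower (median 0.01). The kinesin gene Kif11 was at 1.72 (1.27 to 2.32), the checkpoint kinase gene Ttk at 0.605 (0.446 to 0.817) and the anaphase activator gene Cdc20 at 0.759 (0.650 to 0.886). The proliferation marker Mki67 stood at 38.6, 35.4, 27.8 and 32.7 CPM, a ratio of 0.922 (0.796 to 1.07). The cells are called senescent after their labels. By value Cdkn1a, Cdkn2a and Mki67 were lower in the senescent control than in the young control. Il6 was higher, at 4.81 CPM against 3.97 CPM. Whether these markers bear out the label was not tested. Ccnd1 stood at 969.7, 1322, 1472 and 911 CPM, lowest with both compounds and highest with TSA.

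Secreted inflammatory genes of the senescent secretome had 5 of 21 higher, 6 lower and 10 neither (median -0.11, mean 0.003). Igfbp3 and Igfbp7 were among the higher members, and the chemokine gene Cxcl1 was at 1.45 (1.08 to 1.94). The macrophage growth factor gene Csf1 was at 0.834 (0.767 to 0.907), Mif at 0.906 (0.866 to 0.947) and Il6, at 4.81 and 3.90 CPM, at 0.811 (0.526 to 1.24). Interferon and RNA sensing genes had 4 of 15 higher and 1 lower (median 0.09). Ifitm3, an antiviral membrane protein gene, stood at 346, 294, 358 and 382 CPM, a ratio of 1.30 (1.24 to 1.36). The scarce Irf7, a transcription factor gene of this response, was at 2.74 (1.56 to 5.01) and Ifit2 at 2.04 (1.34 to 3.16). Immediate early genes had 6 of 22 higher and 1 lower (median 0.02). The zinc finger factor Egr3 was at 1.75 (1.29 to 2.39), Egr2 at 2.56 (1.40 to 4.90) and Zfp36, which destabilises cytokine messengers, at 1.86 (1.36 to 2.58).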

How the data were processed

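Total RNA of 4 samples of rat femur mesenchymal stem cells, 1 per condition, was extracted with TRIzol and sequenced with the QuantSeq 3' FWD kit as single-end reads of 100 bp, per the labels' protocols. The authors deposited raw counts, whole numbers by gene, and log2 normalized values, per the file headers. On checking, each deposited log2 value equalled log2 of the count over 1 factor per library, plus 1, within 0.000532. Per the submitters' processing notes, the build was mRatBN7.2 and the tools HTSeq 2.0.2 and STAR 2.7.10b, with no role stated. The annotation, the use of strand and the handling of duplicates were not given in the sources used here, so antisense, overlapping and near-identical genes are uncertain.

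Genes entered with 40 or more counts summed over all 4 libraries. Counts were scaled by trimmed mean of M-values (TMM) factors over the 4 libraries with edgeR 4.0.16 in R 4.3.3. With 1 library per condition its quasi-likelihood test could not be fitted, since no residual degrees of freedom remain. Ratios carry 95% exact conditional binomial (Clopper-Pearson) intervals from scipy 1.17.1 in Python 3.11.15, and log2 ratios use a prior count of 0.5. A count of 0 was taken to allow 3 counts. The interval code was tested on simulated data. Named are every gene beyond 2-fold, up to 25 per direction beyond 1.5-fold and holding 100 or more counts in the pair, up to 4 members per list and direction with the most abundant member, and 29 anchor genes. The 10 largest gains and 10 largest losses in CPM were added after their values were seen. Some genes under these rules are not reported here, though counts and medians of lists include them. The gene lists, anchors and members were chosen with earlier results of these data known. Of the gene identifiers, 93.1% were found in the RefSeq table of the build GRCr8, and all promoters shown were matched by identifier. Alternatives were total counts, upper quartile factors, DESeq2 1.42.0 size factors, TMM without mitochondrially encoded and ribosomal protein genes, other filters, folds, interval levels and prior counts, and the deposited log2 values.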

Additional observations from a re-analysis of the deposited data

How the results depend on the processing

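No named gene whose interval excluded no change turned its sign. Nor did a list median where the medians of its members' lower and upper bounds lay on the same side of no change. Counts of genes moved with the filter and the size rule. Without a filter beyond 1 count in the pair, 169 genes were higher and 116 lower beyond 1.5-fold, and 48 and 29 beyond 2-fold. With at least 200 counts over the 4 libraries the numbers were 19 and 27, and 0 and 2. With 99% intervals 1226 genes were higher and 1264 lower, 26 and 23 of them beyond 1.5-fold, and 3 were higher and 7 lower beyond 2-fold. By the ratio alone 765 and 704 genes passed 1.5-fold, and 276 and 250 passed 2-fold. A 4-fold rule left 0 and 0. Fewer or more genes or wider intervals enter by construction in each case. Every count stayed within 1.5 times under the other scalings, and under the removal of mitochondrially encoded, transfer RNA and ribosomal RNA genes, an alternative chosen after seeing the data. Total counts in place of TMM moved the median of all genes by -0.028 and gave 1619 higher and 2297 lower genes, 41.3% of calls higher against 49.9%.

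Each of 456 recomputed medians was set against the range between the medians of its members' lower and upper bounds. This range is often wide and is not an interval of the median itself. Within it lay 454, the exceptions being fibrillar collagens (0.11 by total counts and 0.08 without a filter, against 0.14). However, 21 medians, in 15 lists, turned their sign and a further 61 moved over 1.5 times with the sign kept. Other scalings gave 11 of the turned signs, in medians of at most 0.0163 in size. Filters gave the others. Without a filter the medians became -0.05 for osteoblast matrix, 0.08 for adipogenic, 0.05 for Notch, 0.03 for receptor tyrosine kinase, 0.03 for solute transport and 0.0007 for sodium transport genes. With at least 200 counts they became -0.53 for skeletal muscle, -0.006 for osteoblast matrix, -0.02 for prostaglandin and 0.002 for HOX genes. Epithelial-type genes went from -0.26 to -0.42 without a filter and -0.61 with at least 200 counts, and skeletal muscle genes from 0.41 to 0.22 without a filter and 0.26 in the deposited log2 values. Of the named genes' log2 ratios 646 stayed within the gene's own counting interval and 6 moved out of it. By total counts ND4 moved to 0.70 and Spp1 to -0.60. In the deposited log2 values, which add 1 to each scaled count, LOC120102327, Slc16a11, LOC120098012 and Kcnj14 moved to -1.295, -1.453, -1.458 and 1.156. No paired analysis was possible because each condition has 1 library and the labels pair none, and for the same reason no library could be left out. Depth sets what can be seen: the median interval spans 1.89-fold either way for genes under 100 counts and 1.07-fold for those with at least 2000. With 1 library per condition, differences between cultures cannot be told apart from those of the treatment.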
